A study of Mus musculus with 12 samples.

Results

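The aryl hydrocarbon receptor (AHR) pathway was followed through 7 genes, namely the receptor gene Ahr, its partner Arnt, the feedback genes Ahrr and Tiparp, and the cytochrome P450 genes Cyp1a1, Cyp1a2 and Cyp1b1. They were picked by Ensembl identifier from the 55487 genes of the count tables, and 6 of the 7 were among the 19581 genes that passed a filter on low counts and were tested. RNA was sequenced from crypts freshly isolated from the small intestine (SI tissue) and the large intestine (LI tissue) of C57BL/6 mice, and from epithelial monolayers grown out of such crypts for 24 h (SI monolayers and LI monolayers), with 3 libraries a group. All groups were of the same strain without a transgene or a test drug, and the labels give no age. SI crypts were taken from the jejunum and released with EDTA, whereas LI tissue was first digested with collagenase and dispase, so that region and isolation method cannot be told apart. Monolayers were started on Matrigel in a seeding medium that held CHIR-99021, LDN-193189 and Y-27632 beside EGF, R-spondin-1 and Wnt3a, and were then kept with Wnt3a, EGF, Noggin and R-spondin-1. A tissue library was 1 mouse and a monolayer library pooled culture wells. The sources used here do not say whether the wells came from separate mice, so p-values measure only the spread between libraries, which may be technical in the monolayers. The paper took the large intestine for monolayers from the mice that gave the jejunum. Libraries of SI and LI may therefore share mice, which the labels do not show, and the main tests treated all libraries as independent.

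AHR waits in the cytoplasm in a complex with the chaperone HSP90 and its partner p23 until it binds a ligand, such as an indole from plants, a tryptophan product of host or microbes, or an aromatic pollutant. It then enters the nucleus, pairs with ARNT and binds DNA at a short core, GCGTG, near target genes. CYP1A1, CYP1A2 and CYP1B1 oxidise and clear the ligands, and AHRR and the ADP-ribosyltransferase TIPARP hold the receptor back. In the intestine the pathway is best known in the epithelium and in resident lymphocytes, which meet ligands from food and microbes.

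In LI monolayers Cyp1a1, Cyp1b1, Tiparp and Ahr were all higher than in LI tissue by at least 1 log2 unit, while in SI monolayers Cyp1a1 and Ahrr were lower than in SI tissue and no tested member was higher by that much. Cyp1a1 thereby changed places between the regions. In fresh crypts it was an SI transcript, with 3 counts in all 3 LI tissue libraries together, and after 24 h in culture it was highest in LI monolayers. Arnt lay between 2121 and 2625 normalized counts in all 12 libraries. Of 11 tested genes of the receptor battery, 7 fell in LI monolayers, among them Nqo1, Cyp2s1 and Ugdh, and Gsta1 and Gsta2 rose. Without Ugt1a6b, which was tested only because LI tissue passed the filter, 6 of 10 fell. Over all tested genes, 23.5% fell and 14.5% rose there, by the limits given below.

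The stretches just before the RefSeq start of the 4 P450 and feedback genes whose levels differed between regions or preparations are shown because the receptor binds such cores at target genes. They are read 5′ to 3′ on the strand of the gene (RefSeq, GRCm38.p6), with the core GCGTG, or CACGC where it lies on the opposite strand, in capitals. Bases that GENCODE places in an exon were left out, which took 37 bases next to the start of Tiparp.
Cyp1a1, chr9:57697363-57697612, plus strand: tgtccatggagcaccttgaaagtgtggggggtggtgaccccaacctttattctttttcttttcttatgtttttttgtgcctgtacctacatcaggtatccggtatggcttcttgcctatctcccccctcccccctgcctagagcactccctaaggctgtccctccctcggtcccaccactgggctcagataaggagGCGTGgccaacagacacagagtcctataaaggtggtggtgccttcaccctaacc
Cyp1b1, chr17:79715062-79715311, minus strand: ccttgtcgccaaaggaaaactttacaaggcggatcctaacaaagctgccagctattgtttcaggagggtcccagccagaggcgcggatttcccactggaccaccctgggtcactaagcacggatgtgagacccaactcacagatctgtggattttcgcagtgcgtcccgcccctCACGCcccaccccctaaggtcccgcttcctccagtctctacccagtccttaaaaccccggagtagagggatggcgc
Ahrr, chr13:74292332-74292581, minus strand: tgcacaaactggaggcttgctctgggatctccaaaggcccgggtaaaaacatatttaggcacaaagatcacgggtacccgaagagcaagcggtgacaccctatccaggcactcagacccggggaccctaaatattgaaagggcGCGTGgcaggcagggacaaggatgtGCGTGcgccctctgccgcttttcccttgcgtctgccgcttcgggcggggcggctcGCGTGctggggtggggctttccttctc
Tiparp, chr3:65528197-65528409, plus strand: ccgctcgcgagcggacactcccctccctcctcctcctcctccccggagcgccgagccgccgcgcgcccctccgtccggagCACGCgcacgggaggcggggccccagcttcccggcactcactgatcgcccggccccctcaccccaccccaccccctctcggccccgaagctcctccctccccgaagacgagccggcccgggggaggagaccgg
The Cyp1a1 window held 1 core, beginning 54 bases before the start. The Cyp1b1 window held 1 core at 76 bases and the Tiparp window 1 at 170 bases, both on the opposite strand. The Ahrr window held 3 cores, at 107, 82 and 27 bases. The last of these was also the only match to the longer form TNGCGTG among the members. Arnt held 1 core, at 29 bases, and Cyp1a2 held none in 202 bases. A window was given for 6 of the 7 members. On either strand, 28.2% of 32851 promoter windows of 250 bases held at least 1 core, 8.63% at least 2, 2.77% at least 3 and 4.10% the longer form. A match describes these letters and does not show binding.

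The members lie on 5 chromosomes (GRCm38 gene models). Cyp1a1 (ENSMUSG00000032315, chr9:57687928-57703824, plus strand) and Cyp1a2 (ENSMUSG00000032310, chr9:57676937-57683703, minus strand) are neighbours that point away from each other, with RefSeq starts 13958 bases apart. The printed Cyp1a1 window lies inside the GENCODE gene model, outside its exons. Cyp1b1 is at chr17:79701537-79715061 (minus strand), Ahr at chr12:35497974-35535038 (minus strand) and Ahrr at chr13:74211118-74292331 (minus strand). Arnt (chr3:95434388-95497240, plus strand) and Tiparp (chr3:65528410-65555518, plus strand) share a chromosome. Other annotated genes overlap Ahr (the antisense RNA Gm48236), Tiparp (the antisense pseudogene 4931440P22Rik) and Arnt (the pseudogene Gm42672). Whether counting used strand is not given in the sources used here, so reads of these pairs may be hard to separate. The overlapping genes had at most 29.4 (Gm48236), 107 (4931440P22Rik) and 3.76 (Gm42672) normalized counts in any library.

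Values below are counts divided by the size factor of each library, as the authors normalized them, over total counts of 59016196 to 76216530 a library. In fresh crypts, lists of defining markers matched the labels. All 6 SI markers tested were higher in SI tissue than in LI tissue, 5 of 6 LI markers were lower there, and none of 9 epithelial markers was at 0 in any group. Between monolayers, 5 of 6 SI markers were higher in SI than in LI and 4 of 6 LI markers lower. Over all tested genes, 11.6% were higher and 11.1% lower in SI than in LI tissue, and 12.4% and 8.88% between monolayers. In culture, 2 of 6 SI markers were lower in SI monolayers than in SI tissue, against 16.4% of all tested genes. LI monolayers had 5 of 6 LI markers lower than LI tissue, and of the epithelial markers 3 were higher and 2 (Cdx1 and Cdx2) lower. Over all tested genes, 14.5% were higher and 23.5% lower there. The LI marker Hoxd10 was tested only because LI tissue passed the filter, so it had to differ from the other groups. Without it, 4 of 5 LI markers were lower in SI than in LI tissue. Likewise 4 of 5 were lower in LI monolayers than in LI tissue. The mitochondrial share of counts was 4.56% to 9.16% for SI tissue, 2.25% to 2.59% for LI tissue and 0.472% to 0.750% for monolayers. In bulk RNA, fewer cells of a type and less RNA per cell cannot be told apart. A gene was called higher or lower where its adjusted p (edgeR quasi-likelihood test, Benjamini-Hochberg over all tested genes) was under 0.05 and its absolute log2 fold change at least 1, and all adjusted p-values below are of that kind.

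Ahr, the receptor itself, was at 936, 860.0 and 894 normalized counts in the 3 SI tissue libraries and at 1240.1, 1277 and 1210.0 in SI monolayers. In LI tissue it was at 636, 621 and 569, and in LI monolayers at 1733, 1725 and 1813. LI tissue was lowest and LI monolayers highest, with SI tissue and SI monolayers in between, and no pair of groups overlapped. In LI the mean went from 608 ± 35.4 to 1757 ± 48.8 (SD, n = 3), a log2 fold change of 1.58 (SE 0.07, adjusted p = 9.29e-12), and Ahr was called higher. In SI it went from 897 ± 38.2 to 1243 ± 33.8 (SD, n = 3), a log2 fold change of 0.50 (SE 0.07, adjusted p = 1.12e-05), which is under the minimum of 1. The change in SI differed from that in LI by -1.07 on the log2 scale (SE 0.10, adjusted p = 3.13e-07). That difference came below a size of 1 when any 1 of the 6 monolayer libraries was left out (-0.98 to -0.94). Between the regions, Ahr was 0.60 log2 units higher in SI than in LI tissue (adjusted p = 2.61e-06), and its log2 fold change in SI against LI monolayers was -0.47 (adjusted p = 2.66e-05). Both passed on p alone.

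Arnt, which encodes the partner that AHR shares with the hypoxia factors, was at 2625, 2484 and 2121 in SI tissue and at 2382, 2178 and 2189 in LI tissue. SI monolayers had 2480.2, 2508 and 2585, and LI monolayers 2468, 2461 and 2606. SI tissue overlapped each of the other groups, and the 2 monolayer groups overlapped each other. No comparison called Arnt. Its log2 fold change in monolayers was 0.10 in SI (95% interval -0.05 to 0.25, adjusted p = 0.224) and 0.21 in LI (95% interval 0.06 to 0.35, adjusted p = 0.0163). These intervals leave out a change of 1 log2 unit, so the depth was enough to see one. The change in SI minus that in LI was -0.10 (95% interval -0.31 to 0.11, adjusted p = 0.428).

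**Figure D1:**
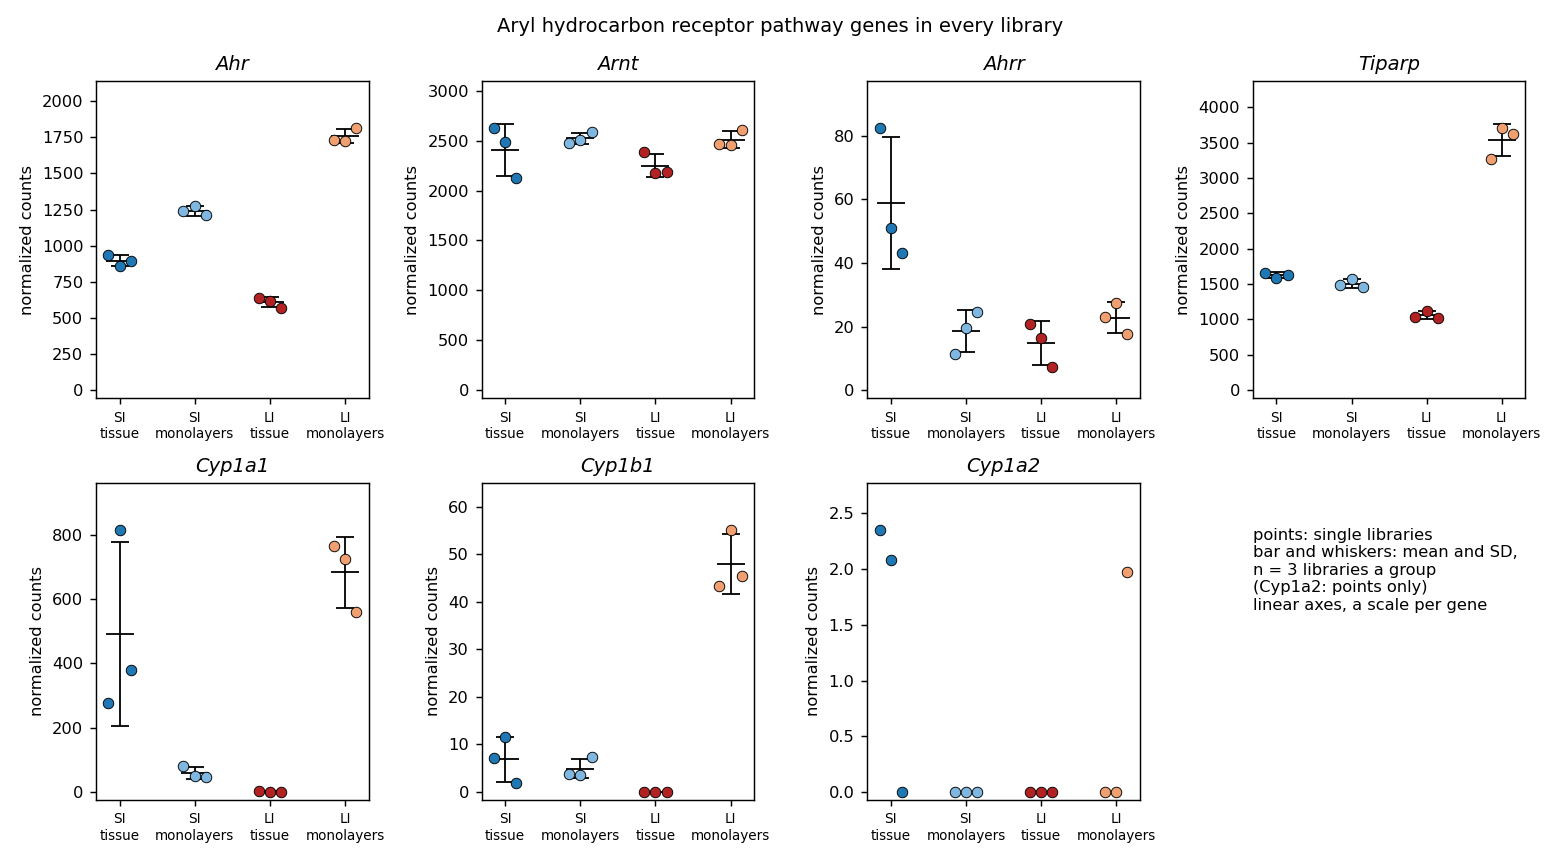
Normalized counts of the 7 pathway genes (linear vertical axes, a scale per gene) in the 12 libraries, grouped by region and preparation, with a point per library and, except for Cyp1a2, the mean and SD of 3 libraries. Ahr, Tiparp and Cyp1b1 peak in LI monolayers, Cyp1a1 is near 0 in LI tissue and low in SI monolayers, Ahrr is highest in SI tissue, and Arnt is nearly level.

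Cyp1a1, the inducible monooxygenase most often used as a readout of the receptor, had 278, 816 and 379 normalized counts in SI tissue and 80.6, 49.9 and 45.6 in SI monolayers. In LI tissue it had 1.88, 0.915 and 0, from raw counts of 2, 1 and 0. In LI monolayers it had 766, 725 and 559. All LI monolayer libraries were thus far above all LI tissue libraries, whereas all SI monolayer libraries were below all SI tissue libraries. The range of SI tissue overlapped that of LI monolayers.

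In SI, Cyp1a1 fell from 491 ± 286 to 58.7 ± 19.1 (SD, n = 3) in monolayers, a log2 fold change of -3.03 (SE 0.40, adjusted p = 5.84e-05). In LI it rose to 684 ± 109.6 (SD, n = 3; adjusted p = 2.69e-07). Summed over the libraries and scaled by size factors, LI monolayers held 745 times the counts of LI tissue, with a 95% counting interval of 255 to 3618 that rests on the 3 counts of LI tissue. SI tissue held 543 times those of LI tissue (185 to 2634, adjusted p = 9.98e-07). Without LI tissue replicate 1, which held 2 of these 3 counts, the fitted log2 fold change went from 9.41 to 10.25 for LI monolayers against LI tissue and from 8.92 to 9.76 for SI against LI tissue. LI monolayers held 11.7 times those of SI monolayers (10.1 to 13.7), and the fitted log2 fold change of SI against LI monolayers was -3.52 (SE 0.41, adjusted p = 2.47e-05). The opposite changes in the 2 regions differed from each other with adjusted p = 4.09e-07. In every library 73.4% to 77.4% of counts from 1 to 20 were even, which paired mates counted singly would give, so these intervals may be too narrow and cover counting error only.

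Cyp1b1, the P450 of this family that is also found in mesenchymal cells, was at 43.3, 55.1 and 45.5 normalized counts in LI monolayers, and no read was counted in any LI tissue library. SI tissue had 7.06, 11.5 and 1.96 and SI monolayers 3.84, 3.56 and 7.29. LI monolayers were above every other library, and the SI groups overlapped. Cyp1b1 reached the filter through LI monolayers, so it had to differ from the other groups to be tested, and its calls there add nothing to its values. Against a limit of 3 counts summed over LI tissue, LI monolayers were at least 52.0-fold higher (adjusted p = 3.3e-06) and SI tissue, with 19 counts against 0, at least 7.33-fold higher (adjusted p = 0.00117). If both mates of a pair were counted, these bounds become 26.0-fold and 3.66-fold. LI monolayers held 9.70 times the scaled counts of SI monolayers (95% counting interval 5.77 to 17.4, adjusted p = 0.000427). In SI the log2 fold change in monolayers was -0.42, with a 95% interval of -1.87 to 1.03 and adjusted p = 0.615. This interval is too wide to exclude a doubling or a halving. Without SI tissue replicate 2 that value became 0.19, and the fitted log2 fold change of SI against LI tissue went from 5.82 to 5.21.

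Cyp1a2, the paralog of Cyp1a1 that is mainly a liver enzyme, had 6 counts in all 12 libraries together. They were 2 and 2 in SI tissue replicates 1 and 2, and 2 in LI monolayers replicate 3. These libraries had between 278 and 816 normalized counts of Cyp1a1. Cyp1a2 did not pass the filter, and differences between the groups were not detectable at this depth. How reads that fit both paralogs were counted is not given in the sources used here.

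Tiparp, which encodes the ADP-ribosyltransferase that marks AHR for loss, was at 1662, 1584 and 1632 in SI tissue and 1488, 1574 and 1452 in SI monolayers. The LI tissue libraries had 1032, 1124 and 1016, and those of LI monolayers 3272, 3703 and 3621. LI monolayers were above and LI tissue below all other libraries. The mean in LI rose from 1057 ± 58.4 to 3532 ± 229 (SD, n = 3), a log2 fold change of 1.79 (SE 0.07, adjusted p = 9.83e-13). In SI the log2 fold change was -0.08 (95% interval -0.22 to 0.06, adjusted p = 0.327), and the changes in the 2 regions differed by -1.86 (SE 0.09, adjusted p = 3.25e-10). SI against LI turned over with culture, from 0.66 in tissue (adjusted p = 3.76e-07, under the minimum of 1) to -1.20 in monolayers (adjusted p = 2.99e-10).

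Ahrr, whose product competes with AHR for ARNT, was at 82.3, 51.1 and 43.0 in SI tissue. SI monolayers had 11.5, 19.6 and 24.6, LI tissue 20.7, 16.5 and 7.14, and LI monolayers 23.1, 27.5 and 17.8. All SI tissue libraries lay above all others, and the other groups overlapped. Ahrr fell in SI monolayers with a log2 fold change of -1.61 (SE 0.44, adjusted p = 0.00464) and was 2.03 log2 units higher in SI than in LI tissue (SE 0.45, adjusted p = 0.00113). In LI its log2 fold change in monolayers was 0.67 (95% interval -0.31 to 1.65, adjusted p = 0.209), and SI and LI monolayers differed by -0.26 (95% interval -1.22 to 0.71, adjusted p = 0.672). The changes in the 2 regions differed by -2.29 (SE 0.64, adjusted p = 0.0077). Ahrr, whose window held 3 cores, was thus not called with Cyp1a1 and Tiparp in LI monolayers, although its interval there reaches past the 1.58 of Ahr.

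Counted together, 4 of the 6 tested members were higher and 0 lower in LI monolayers than in LI tissue, where 14.5% of all tested genes were called higher and 23.5% lower. In SI monolayers 0 were higher and 2 lower than in SI tissue, against 9.71% and 16.4% of all tested genes. In tissue, 3 (Cyp1a1, Cyp1b1 and Ahrr) were higher in SI than in LI and 0 lower, against 11.6% and 11.1%. In monolayers 0 were higher and 3 (Cyp1a1, Cyp1b1 and Tiparp) lower in SI than in LI, against 12.4% and 8.88%. For 5 of the 6, all but Arnt, the change in SI minus that in LI was called lower and for 0 higher, against 8.51% and 11.4% of all tested genes. The median log2 fold change of the tested members was 1.68 in LI and -0.25 in SI, beside -0.05 over all tested genes in both. These comparisons share libraries, and the passing of Cyp1b1 through LI monolayers enters each count that involves that group, and the LI median. Without Cyp1b1, 3 of 5 members were higher in LI monolayers than in LI tissue. Likewise 2 of 5 were lower in SI than in LI monolayers, and 4 of 5 were called lower for the difference of the changes.

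**Figure D2:**
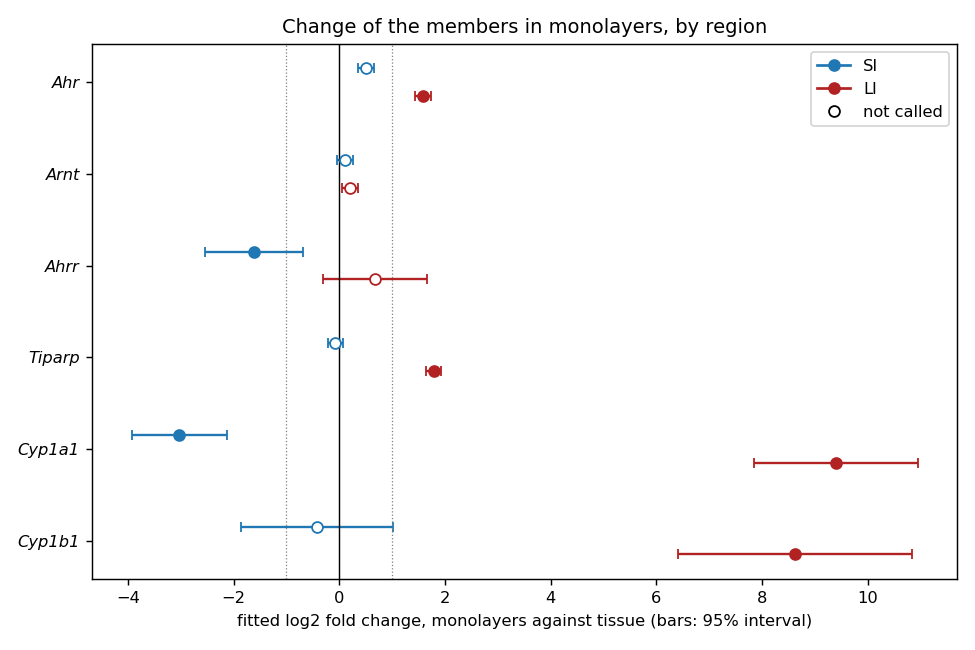
Fitted log2 fold change of monolayers against tissue (horizontal axis) for the 6 tested members in SI (blue) and LI (red), with 95% intervals, filled where called and open where not, and dotted lines at the minimum of 1. Ahr, Tiparp, Cyp1a1 and Cyp1b1 are called higher in LI, and Cyp1a1 and Ahrr are called lower in SI, while both Arnt points lie near 0. The LI values of Cyp1a1 and Cyp1b1 rest on 3 and 0 counts in LI tissue and depend on the prior count of the fit.

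Levels of different genes were set side by side per kb of merged exons. In LI monolayers Tiparp had the most normalized counts per kb (810 ± 52.5, SD, n = 3), followed by Arnt (314 ± 10.2), Ahr (285 ± 7.93) and Cyp1a1 (245 ± 39.3). Cyp1b1 (8.21 ± 1.07) and Ahrr (2.42 ± 0.518) were far lower. Cyp1a1 and Ahr are neighbours in this order that lie close to 1 SD of Cyp1a1 apart. In SI tissue the order was Tiparp (373 ± 8.96), Arnt (301 ± 32.5), Cyp1a1 (176 ± 103), Ahr (146 ± 6.20), Ahrr (6.23 ± 2.20) and Cyp1b1 (1.17 ± 0.815), with Cyp1a1 and Ahr within the spread of Cyp1a1. In SI monolayers Cyp1a1 was at 21.1 ± 6.86 per kb and Ahr at 202 ± 5.48, and in LI tissue Cyp1a1 was at 0.334 ± 0.337 and Ahr at 98.7 ± 5.74. With the longest transcript as the length, Arnt was at 557 per kb in SI tissue, above Tiparp at 388, so the order of these genes depends on the length used.

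Beside the members, 48 genes of the pathway were taken from lists, of which 41 were tested. In SI monolayers 9 were called higher and 5 lower than in SI tissue, against 9.71% and 16.4% of all tested genes. In LI monolayers 9 were higher and 15 lower than in LI tissue, against 14.5% and 23.5%. Between regions, 8 were higher and 3 lower in SI than in LI tissue, against 11.6% and 11.1%, and 16 were higher and 0 lower in SI than in LI monolayers, against 12.4% and 8.88%. The 15 lower in LI monolayers and the 3 lower between tissues include Ugt1a6b. It was tested only because LI tissue passed the filter, so it had to differ from the other groups, and its calls against LI tissue add nothing.

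Of 4 genes of the cytosolic complex, 1 was called higher in SI monolayers and 3 in LI monolayers, against 9.71% and 14.5% of all tested genes. None differed between regions past the threshold. Hsp90aa1, the inducible HSP90 chaperone, went from 12381 ± 503 to 65278 ± 4066 normalized counts (SD, n = 3) in LI, a log2 fold change of 2.44 (adjusted p = 7.34e-15), and rose by 1.50 in SI (adjusted p = 3.65e-12). Ptges3, which encodes p23, rose by 1.33 log2 units in LI (adjusted p = 1.8e-12), and Src, a kinase bound to the receptor complex, by 1.13 (adjusted p = 3.63e-11). The list medians of the log2 fold change were 0.95 in SI and 1.23 in LI, beside -0.05 over all tested genes in both.

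Of 7 ARNT relatives and partners 6 were tested. In SI monolayers 1 was called higher and 0 lower, against 9.71% and 16.4% of all tested genes. In LI monolayers 1 was higher and 2 lower, against 14.5% and 23.5%. Arnt2, a close relative of Arnt, rose in both regions, from 171 ± 33.7 to 1701 ± 138 in SI (log2 fold change 3.35, adjusted p = 1.95e-09) and from 116 ± 34.7 to 309 ± 49.5 in LI (log2 fold change 1.46, adjusted p = 1.17e-05; SD, n = 3). The rise was larger in SI by 1.88 log2 units (adjusted p = 5.93e-05). Epas1, which encodes a hypoxia factor that also uses ARNT, fell in LI monolayers with a log2 fold change of -1.98 (adjusted p = 9.99e-13) from 5592 to 5917 normalized counts in LI tissue, where SI tissue had 907 to 1077. Arntl2, a clock relative, fell in LI with a log2 fold change of -2.03 (adjusted p = 1.31e-05). Hif1a was not called in either region, with log2 fold changes of 0.47 in SI and -0.48 in LI.

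Of 7 coregulators, 0 were called higher and 1 lower in SI monolayers, against 9.71% and 16.4% of all tested genes. In LI monolayers 1 was higher and 1 lower, against 14.5% and 23.5%. None of these counts is above its share. Ncoa1, a coactivator of nuclear and bHLH-PAS factors, was called lower in both regions (-1.03 in SI and -1.12 in LI). The related coactivator Ncoa2 was called higher in LI (1.33). No coregulator was called between regions or for the difference of the changes.

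The receptor gene battery, a list of 14 further targets described in various tissues, had 11 tested genes. In LI monolayers 2 were called higher and 7 lower than in LI tissue, against 14.5% and 23.5% of all tested genes, with a list median of -1.17 on the log2 scale beside -0.05 over all tested genes. In SI monolayers 3 were higher and 1 lower, against 9.71% and 16.4%, with a list median of 0.58. Cyp2s1, a P450 of epithelia, was at 8967 to 9701 normalized counts in LI tissue and at 495 to 581 in LI monolayers, a log2 fold change of -4.09 (adjusted p = 1.73e-16). In SI it was 7111 to 7722 in tissue and 6025 to 6305 in monolayers, with a log2 fold change of -0.24. The Cyp2s1 groups of LI were far apart, in the direction opposite to Cyp1a1.

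Nqo1, the quinone reductase that both AHR and NRF2 can induce, fell in LI from 3181 ± 142 to 1376 ± 146 (SD, n = 3), a log2 fold change of -1.16 (adjusted p = 1.53e-09), against 0.58 in SI. Nfe2l2, which encodes NRF2, was not called in either region (0.83 in SI and 0.82 in LI). Ugdh, which makes the sugar donor for glucuronidation, rose in SI by 1.02 (adjusted p = 4.21e-06) and fell in LI with a log2 fold change of -1.88 (adjusted p = 8e-09). The glucuronosyltransferase genes Ugt1a6a (-2.66) and Ugt1a6b (-4.29) fell in LI, but they share exons and their counts are uncertain. Ugt1a6b was tested only because LI tissue passed the filter, with 24.4 to 40.3 normalized counts there and 0.963 to 2.30 in LI monolayers, so it had to differ from the other groups. Without it 6 of 10 battery genes were lower in LI monolayers. Scin, a gelsolin relative, fell in LI (log2 fold change -1.17), and Xdh, xanthine dehydrogenase, fell in both regions (-2.79 in SI and -2.06 in LI).

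The glutathione transferases Gsta1 and Gsta2 rose in both regions. Gsta1 went from 1850.2 ± 932 to 43748 ± 601 in SI (log2 fold change 4.60, adjusted p = 1.6e-06) and from 782 ± 56.9 to 2268 ± 55.3 in LI (log2 fold change 1.58, adjusted p = 0.000998; SD, n = 3). The 2 genes are close paralogs, and reads may be split between them. In monolayers 9 of the 11 battery genes were higher in SI than in LI and 0 lower (8 and 0 of 10 without Ugt1a6b), against 12.4% and 8.88% of all tested genes, with Cyp2s1 at 3.55 and Nqo1 at 1.49, whereas Cyp1a1, Cyp1b1 and Tiparp were lower in SI. The change in SI minus that in LI was called higher for 7 of the 11 battery genes and lower for 0 (6 and 0 of 10 without Ugt1a6b), against 11.4% and 8.51%.

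**Figure D3:**
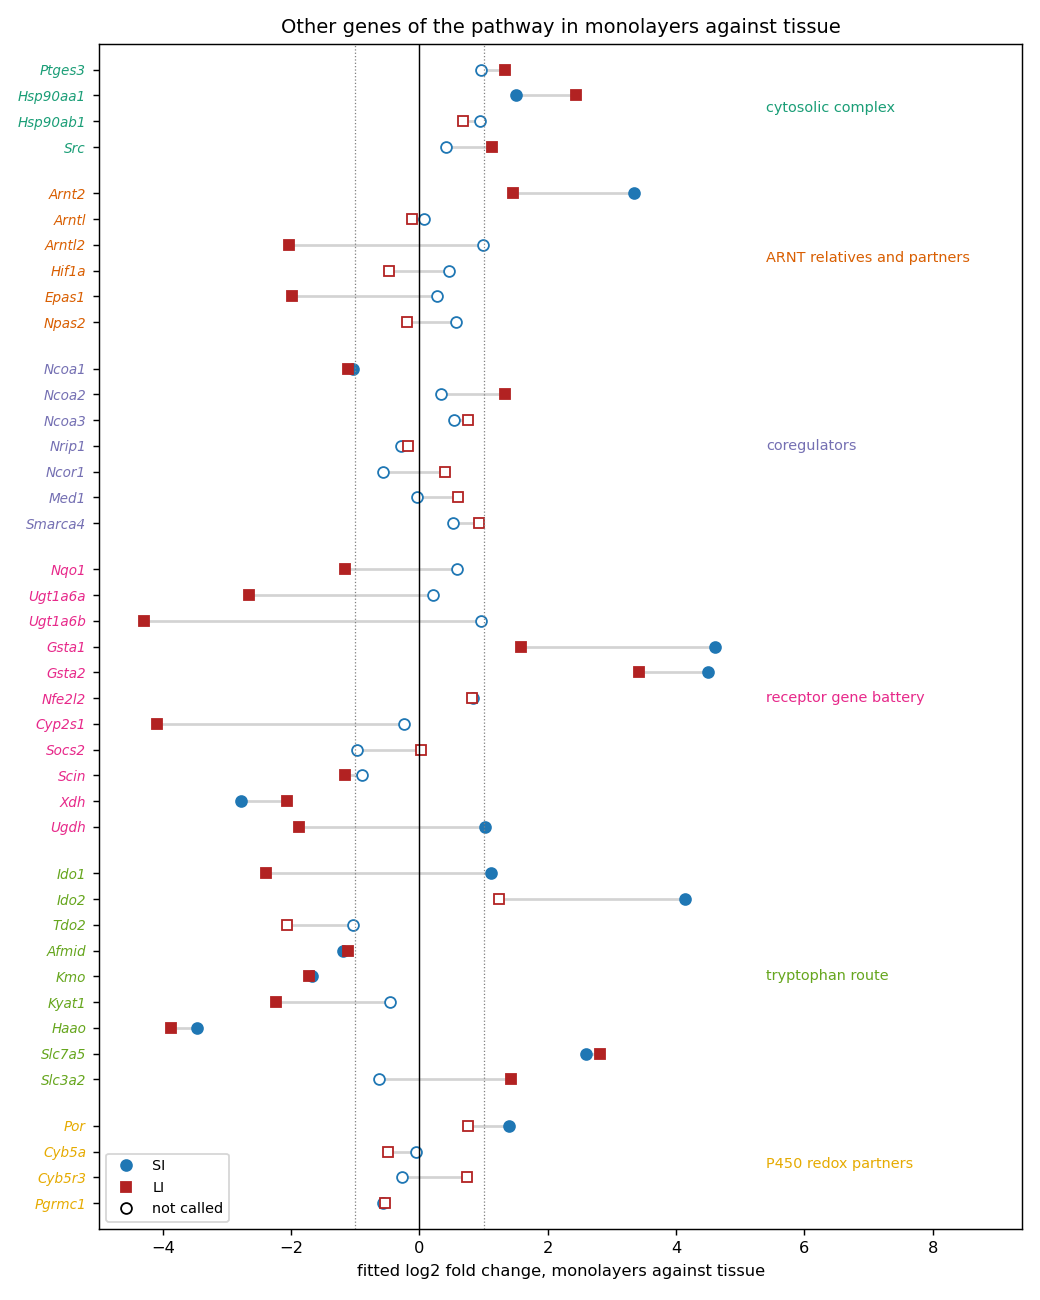
Fitted log2 fold change of monolayers against tissue (horizontal axis) for the 41 tested genes of the pathway lists, in SI (blue circles) and LI (red squares), filled where called and open where not, with dotted lines at the minimum of 1 and gene names coloured by list. In the battery, Gsta1 and Gsta2 are called higher in both regions, and Nqo1, Ugt1a6a, Ugt1a6b, Cyp2s1 and Ugdh lie left of 0 in LI but not below -1 in SI.

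The tryptophan list covers enzymes of tryptophan breakdown, only some of which form kynurenine and related receptor ligands, and the transporter that imports tryptophan. The genes lower in monolayers include Kmo and Haao in both regions, so their number is not a count of ligand-forming enzymes. Of its 12 genes 9 were tested. In SI monolayers 3 were higher and 3 lower, against 9.71% and 16.4% of all tested genes, and in LI monolayers 2 were higher and 5 lower, against 14.5% and 23.5%. Ido1, the first enzyme of the kynurenine route, rose in SI from 922 ± 480.5 to 1949 ± 41.0 (SD, n = 3; log2 fold change 1.11, adjusted p = 0.0422). In LI it fell from 1227 ± 460.5 to 226 ± 43.5 (SD, n = 3; log2 fold change -2.40, adjusted p = 0.00114). The changes of Ido1 differed between regions by 3.51 (adjusted p = 0.00133), in the direction opposite to Cyp1a1. Kyat1, which forms kynurenic acid, fell in LI with a log2 fold change of -2.23 (adjusted p = 1.95e-10) and was -0.47 in SI. Slc7a5, the importer of large neutral amino acids, rose in both regions (2.59 in SI and 2.82 in LI), and its heavy chain partner Slc3a2 rose in LI only past the threshold (1.42 against -0.62 in SI, a difference of -2.05 with adjusted p = 6.23e-07).

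The P450 redox partners pass electrons to enzymes such as CYP1A1. Por, the P450 reductase, rose in SI monolayers by 1.40 (adjusted p = 2.42e-08) and had a log2 fold change of 0.76 in LI (adjusted p = 7.74e-06). Of the 4 genes of this list, 1 was called higher in SI monolayers and 0 in LI monolayers, against 9.71% and 14.5% of all tested genes. Cyb5a, which encodes cytochrome b5, exceeded LI in SI by 1.79 log2 units for tissue and 2.22 for monolayers.

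Markers of other cell types moved with some of these groups. All 12 lymphocyte markers were called lower in monolayers in both regions, and their summed level went from 34368 to 48959 normalized counts in SI tissue down to 1376 to 1539 in its monolayers, and from 3220 to 4560 in LI tissue down to 175 to 348. Ahrr was highest in the same group, SI tissue, but in LI, where the lymphocyte markers also fell, its log2 fold change was 0.67. The part of these cells in the level of Ahrr was not tested. Cyp1a1 fell in SI together with all 12 lymphocyte markers and with the enterocyte genes Lct (-5.93) and Fabp2 (-2.87). These 2 were the only ones of the 6 SI markers called lower there. In LI, Cyp1a1, Tiparp and Ahr rose while all 12 lymphocyte markers fell. Fabp2 was also called lower in LI, from 15132 ± 4167 to 2688 ± 282 normalized counts (SD, n = 3). The part of lymphocytes and of enterocytes in Cyp1a1 was not tested.

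The mesenchymal list was summed at 3518 to 6095 in LI tissue, and at 4333 to 5880 after culture. In SI the sums were 1379 to 3169 for tissue against 1523 to 2192 for monolayers. Of its 12 markers, 3 (Lum, Pdgfra and Vim) were higher in LI monolayers than in LI tissue and 5 lower. The shares of all tested genes were 14.5% and 23.5%. In LI, Pdgfra went from 29.2 ± 19.4 to 260 ± 47.9 normalized counts, and Dcn from 719 ± 92.5 to 196 ± 32.2 (SD, n = 3). Between monolayers, 8 of the markers were lower in SI than in LI, against 8.88% of all tested genes. No marker of the list was at 0 in any group. Cyp1b1 was highest in LI monolayers and listed at 0 in LI tissue, where the summed mesenchymal level overlapped that of LI monolayers. The part of mesenchymal cells in Cyp1b1 was not tested. Of 8 myeloid markers, 6 were lower and 1 (Cd68) higher in monolayers in both regions. One of the 6, Adgre1, was tested only because LI tissue passed the filter. Without it 5 of 7 were lower and 1 higher in both regions. Over all tested genes, 16.4% were lower and 9.71% higher in SI, and 23.5% and 14.5% in LI. Endothelial cells, which can also express Cyp1b1 and Cyp1a1, had 6 markers, of which 5 were tested. Tissue libraries summed to 293 to 384 in SI and 397 to 472 in LI, and monolayers to 65.9 to 98.9 in SI (Cdh5 and Emcn at 0) and 218 to 280 in LI. In SI monolayers 0 were higher and 4 lower than in tissue, and in LI monolayers 2 were higher (Cdh5 1.82 and Kdr 2.69) and 1 (Vwf) lower. The shares over all tested genes are those given for the myeloid markers. Cdh5 and Kdr thus rose in LI with Cyp1a1 and Cyp1b1, and Kdr, like Cyp1b1, was tested only because LI monolayers passed the filter. The part of endothelial cells in these genes was not tested.

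**Figure D4:**
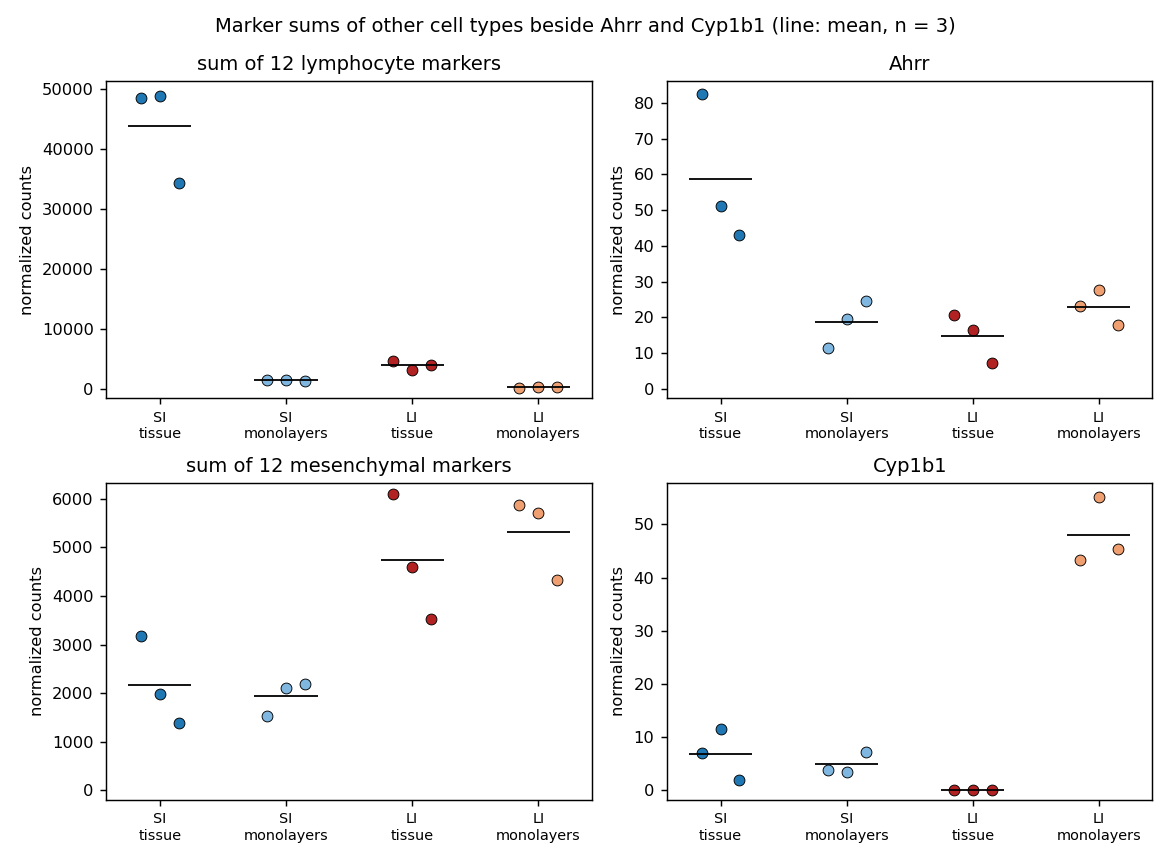
Summed normalized counts of 12 lymphocyte markers and 12 mesenchymal markers (left) and normalized counts of Ahrr and Cyp1b1 (right) in each library of the 4 groups, with the mean of 3 libraries as a line and linear vertical axes. Lymphocyte markers and Ahrr are both highest in SI tissue. The mesenchymal sum, which hides markers that moved in opposite directions, overlaps between LI tissue and LI monolayers, and Cyp1b1 is at 0 in LI tissue.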

How the data were processed

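RNA of 12 libraries (4 groups of 3) was sequenced in paired ends. The authors deposited counts per gene, whole numbers made with STAR 2.7.9a on GRCm38 and featureCounts 2.0.2 per the submitters' processing notes, and a normalized signal, which is each count divided by 1 DESeq2 (given as 3.13) size factor per library. All columns were mapped to a library. Of 55487 genes, 55141 matched a symbol of the GENCODE annotation, used also for lengths and positions.

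The counts were tested with edgeR 4.0.16 (limma 3.58.1, R 4.3.3). Genes were kept by filterByExpr, scaled by TMM and fitted with a robust quasi-likelihood model of 4 group means. There were 5 comparisons, the fifth being the interaction, that is, the change in SI minus that in LI. P-values were adjusted over all tested genes within a comparison, and the limits were an adjusted p under 0.05 and a log2 fold change of at least 1. The median biological coefficient of variation was 0.127, and 3 counts equal 0.0394 to 0.0508 CPM. With counts halved, to allow for both mates being counted, replicate pairs varied by 2.20 to 9.12 times the counting noise (2.20 to 3.66 in monolayers). A spread above counting noise does not show that monolayer libraries are separate cultures. Same-numbered libraries did not deviate together (highest r 0.06 over 18 pairs).

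All members are named. From the lists, some genes past a threshold are named and the rest only counted, and the examples were chosen after their values were seen. Some genes of the lists are not reported here, and the counts leave them out. Per member, the 3 genes of most similar log2 CPM pattern are given. The members and lists were chosen with earlier results of these data known. DESeq2 1.42.0 was an alternative.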

Additional observations from a re-analysis of the deposited data

Results flagged for a closer look

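For 5 of the 6 tested members the change in monolayers against tissue differed between SI and LI by the interaction test of edgeR. The difference, SI minus LI on the log2 scale, was -12.44 for Cyp1a1 (adjusted p = 4.09e-07), which was lower in all 3 SI monolayer libraries than in all SI tissue libraries and higher in all 3 LI monolayer libraries than in all LI tissue libraries. It was -9.05 for Cyp1b1 (adjusted p = 7.11e-05). Cyp1b1 was tested only because LI monolayers passed the filter, so its p adds nothing to its values, and 4 of the other 5 tested members remain without it. The sizes for both genes depend on the prior count of the fit, since LI tissue held 3 counts of Cyp1a1 and 0 of Cyp1b1. They went to -13.28 for Cyp1a1 without LI tissue replicate 1 and to -8.44 for Cyp1b1 without SI tissue replicate 2. It was -1.07 for Ahr (adjusted p = 3.13e-07), where both regions moved up and LI moved further. It was -2.29 for Ahrr (adjusted p = 0.0077), which was called lower in SI and not called in LI. It was -1.86 for Tiparp (adjusted p = 3.25e-10), with the log2 fold change called in LI and close to 0 in SI.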

How the results depend on the processing

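DESeq2, upper quartile scaling, no filter on low counts, halved counts and a fit of only the groups compared (which cannot give the interaction) kept the number of members called in each comparison within 1.5 times of that reported. A minimum of 10 counts in every library removed Cyp1a1, Cyp1b1 and Ahrr by its construction and left 0 members called in SI monolayers against tissue, 2 in LI monolayers against tissue, 0 between tissues, 1 between monolayers and 2 for the interaction. Without a minimum fold change, 5 members differed between SI and LI tissue, Ahr and Tiparp being added, and over all genes 9069 to 13445 were called across the 5 comparisons in place of 3909 to 7442. Leaving out each library in turn gave 2 to 2, 4 to 4, 3 to 3, 3 to 3 and 4 to 5 members called in the 5 comparisons in that order, and ranges of -0.87 to 0.19 for Cyp1b1 in SI, -0.48 to 0.019 for Ahrr between monolayers and -0.18 to 0.036 for the Arnt interaction, none of them called. The Ahr interaction was -0.99 with upper quartile scaling, which moved the median of all genes in LI from -0.05 to -0.17. The sign turned for Cyp1b1 without SI tissue replicate 2, for Ahrr without SI monolayers replicate 1, and for the Arnt interaction (0.021, 0.011 and 0.036) without SI monolayers replicate 1, SI monolayers replicate 2 and LI monolayers replicate 3. Of all recomputed log2 fold changes, 560 kept their direction and side of the threshold, 5 reversed, 5 passed it and 7 fell under it. With the replicate number as a block, 2, 4, 3, 3 and 5 members were called, as without it. Equal numbers showed no pairing, and 0 of 12 libraries correlated best with their own number in every other group. That check cannot show whether libraries of different numbers share a mouse. Depth limits Cyp1a2, Cyp1b1 and Ahrr most.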

Other observations

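Over the 12 libraries, the genes whose log2 CPM followed a member most closely are given as a description, since the libraries share groups and preparation. For Ahr they were Slc6a6 (r = 0.997), Rasal2 and Fkbp1a. For Tiparp they were Cyld (r = 0.989), Tnks and Sik1. For Cyp1a1 they were Sec14l1 (r = 0.988), Zfyve9 and Osbpl11. For Cyp1b1 they were Kmt5b (r = 0.990), Tln1 and Pdpk1. For Ahrr they were Ank2 (r = 0.907), Ntn4 and Cd36, and for Arnt Disp2 (r = 0.934), Syt13 and Praf2. The closest genes of Ahrr and Arnt followed them less closely than those of the other members.

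Serpinb2, a battery gene that did not pass the filter and was picked out after its values were seen, had 30, 20 and 8 raw counts in the LI monolayer libraries and 0 in each of the other libraries.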
